A study of Homo sapiens with 24 samples.

Results

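The genes described here are 49 that make up the lysosome and its control: proteases, glycosidases, sulfatases, lipid hydrolases and their activators, membrane proteins, subunits of the proton pump, progranulin with the sorting receptor sortilin, and the transcription factors TFEB, TFE3 and MITF. They were chosen by name and role, with earlier results of these data known. Their counts beside the shares of all genes are therefore a description and not an independent test. Each was read from the probe set with the highest mean over all arrays among those listed with that gene alone. Of the 49, 46 had such a probe set and 45 passed the filter on dim genes, a log2 intensity of at least 4 on at least 3 arrays, as did 10963 of the 19775 named genes in all. The protease gene LGMN did not pass: it lay between 2.19 and 2.34 on every array, at the bottom of the scale. GLB1 and CD68 are covered by probe sets listed with several genes only, and SORT1, the sortilin gene, was not analysed here.

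The RNA came from 24 samples of 2 human acute leukemia cell lines that carry a rearranged MLL gene, MV4-11 and MOLM-13. The cells were grown in medium with 10% fetal bovine serum, and each sample was measured on 1 Affymetrix array. MV4-11 cells received 3 uM EPZ004777, a small-molecule inhibitor of the histone H3 methyltransferase DOT1L, or 0.1% DMSO as vehicle, for 2, 4 or 6 days. MOLM-13 cells received the same 3 uM EPZ004777 or 0.1% DMSO for 6 days only. Each of the 8 groups holds 3 arrays labelled as biological replicates. The labels give neither the origin of the replicates nor any link between cultures of different days, so p-values measure the spread between these samples. Each line is a single line, so a difference between MV4-11 and MOLM-13 describes these 2 lines. The targeted protein is inhibited, not removed, and no array value checks that inhibition here.

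Lysosomes are acidic compartments in which proteins, glycans and lipids delivered by endocytosis, phagocytosis or autophagy are broken down. Most of their enzymes are made in the endoplasmic reticulum, tagged with mannose 6-phosphate and carried to the lysosome by receptors, while a proton pump of many subunits keeps the lumen acidic. TFEB, TFE3 and MITF are related transcription factors that bind a short palindromic sequence, often called the CLEAR element, near the starts of many lysosomal genes, and they move to the nucleus when nutrient signalling at the lysosome is low. Cells of the monocyte and granulocyte lineages are rich in lysosomes and lysosome-related granules.

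The sequence around the starts of these genes is shown first, because it is what TFEB and its relatives are known to read. RefSeq promoters of GRCh38.p14, from 250 bases before to 50 bases after the start, were matched by symbol for 36 of the 49 genes, and those of ARSA, LGMN, ATP6V1A, HEXA, ATP6V1H, MANBA, NAGLU, ATP6V1B2, PSAP, CTSS, ASAH1, CTSB and LAMP2 were not in the table. The 3 nested palindromes searched each read the same on both strands. They were CACGTG, then TCACGTGA, which contains it, and then TCACGTGA with a G before it and a C after it. CACGTG was found in 10 of the 36 promoters, 27.8%, against 8.77% of the 27305 genes in the table. TCACGTGA was found in 6, 16.7%, against 1.18%. The longest was found in 2, those of GAA and MCOLN1, 5.56% against 0.421%. A match is a description of these letters and does not show that a factor binds there.

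The promoter of GAA, with 2 copies of the motif, and that of IDS, the gene with the largest rise under treatment and no copy of CACGTG in this window, are given whole, with TCACGTGA in capitals. GAA lies on the plus strand at chr17:80101331-80101630 and IDS on the minus strand at chrX:149505257-149505556, both in GRCh38.p14.
GAA: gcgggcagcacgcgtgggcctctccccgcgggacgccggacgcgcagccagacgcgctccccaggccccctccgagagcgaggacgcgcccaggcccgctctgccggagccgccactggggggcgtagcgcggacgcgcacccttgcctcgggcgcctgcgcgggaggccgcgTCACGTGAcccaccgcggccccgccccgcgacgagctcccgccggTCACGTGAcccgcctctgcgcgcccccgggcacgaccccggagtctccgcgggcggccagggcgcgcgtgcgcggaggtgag
IDS: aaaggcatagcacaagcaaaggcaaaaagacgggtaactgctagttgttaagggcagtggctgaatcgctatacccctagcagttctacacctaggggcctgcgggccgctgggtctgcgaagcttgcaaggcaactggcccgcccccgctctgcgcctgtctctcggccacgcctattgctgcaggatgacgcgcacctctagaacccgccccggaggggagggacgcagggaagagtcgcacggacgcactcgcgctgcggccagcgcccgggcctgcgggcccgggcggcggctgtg
The other 5 members with TCACGTGA are shown as stretches of 80 bases, read 5′ to 3′ on the strand of the gene, with the motif in capitals. These are LAMP1 at chr13:113297174-113297253 on the plus strand, CLN3 at chr16:28492033-28492112 on the minus strand, ATP6V0D1 at chr16:67481174-67481253 on the minus strand, MCOLN1 at chr19:7522546-7522625 on the plus strand and CTSA at chr20:45891273-45891352 on the plus strand.
LAMP1: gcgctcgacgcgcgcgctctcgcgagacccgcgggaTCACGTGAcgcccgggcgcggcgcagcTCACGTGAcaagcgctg
CLN3: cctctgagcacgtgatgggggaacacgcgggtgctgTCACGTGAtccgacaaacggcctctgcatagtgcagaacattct
ATP6V0D1: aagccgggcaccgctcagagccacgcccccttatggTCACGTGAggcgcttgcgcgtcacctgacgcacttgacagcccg
MCOLN1: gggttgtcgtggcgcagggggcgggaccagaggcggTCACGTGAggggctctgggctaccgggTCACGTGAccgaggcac
CTSA: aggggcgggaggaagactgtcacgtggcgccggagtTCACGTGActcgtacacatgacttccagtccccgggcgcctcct
In every one of these 6 promoters a copy of TCACGTGA was centred within 73 bases of the start: 73 and 28 bases before it in GAA, and 2 bases after it in LAMP1.

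The 24 arrays differed in one measure of RNA quality that moves with treatment, and it is given here because it touches the day 6 results of both lines. The log2 difference between the 3′ and 5′ control probe sets of ACTB and GAPDH lay between 0.525 and 0.817 on all 12 arrays of days 2 and 4. On day 6 it was 0.567 to 0.583 in MV4-11 with vehicle and 0.826, 0.861 and 1.911 with EPZ004777. In MOLM-13 it was 0.954 to 1.153 with vehicle and 2.102 to 2.84 with EPZ004777. Treated replicate 3 of MV4-11 on day 6 therefore stands apart from the other arrays of its line, and all 3 treated MOLM-13 arrays stand apart from their vehicle arrays. The part of this difference in any single result was not tested beyond a fit with the 3′ to 5′ difference as a covariate. Among the single-gene results checked, that fit turned 7 signs, ended 10 further calls with the sign kept and added 5 calls. Its values are given where a sign turned, but not for every call that ended. A call given without such a value may therefore also end under it.

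Expression of lysosome genes rose under EPZ004777 in both lines, and in MV4-11 the rise grew with time. The mean log2 intensity over the 45 tested genes was 9.83 to 9.87 on the vehicle arrays of day 2 and 10.02 to 10.06 on the treated ones. On day 4 it was 9.96 to 10.06 against 10.26 to 10.30, and on day 6 it was 9.85 to 9.91 against 10.50 to 10.52. MOLM-13 had 9.84 to 9.93 with vehicle and 10.30 to 10.35 with EPZ004777. In all 4 comparisons the treated arrays lay above every vehicle array, and the 3 treated MV4-11 arrays of day 6, the one with the high 3′ to 5′ difference included, differed from each other by little. These are means over bulk cultures, in which more RNA per cell and more cells of one kind cannot be told apart.

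**Figure D1:**
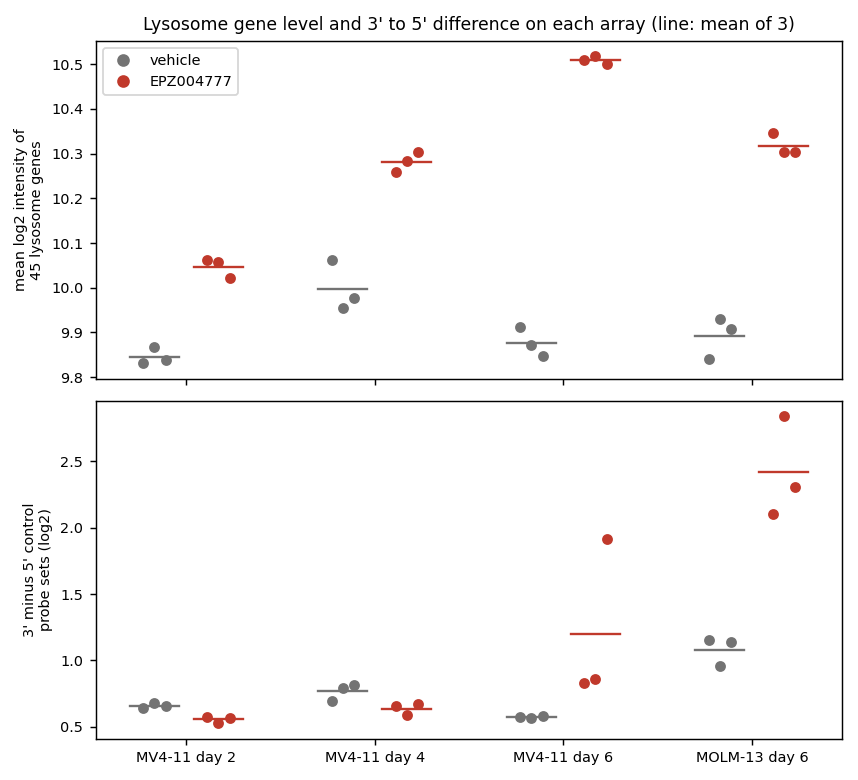
The upper panel plots the mean log2 intensity of the 45 lysosome genes on each of the 24 arrays, and the lower panel the log2 difference between the 3′ and 5′ control probe sets of ACTB and GAPDH on the same arrays, by line and day, with vehicle in grey, EPZ004777 in red and a line at the mean of 3 arrays. The lysosome mean is 10.50 to 10.52 on the treated MV4-11 arrays of day 6 against 9.85 to 9.91 with vehicle, and the 3′ to 5′ difference reaches 1.911 on 1 of those treated arrays and 2.102 to 2.84 on the treated MOLM-13 arrays.

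Counted gene by gene, a change was called at an adjusted p below 0.05 from limma with Benjamini-Hochberg adjustment over the 10963 genes. On day 2 in MV4-11, 14 of 45 lysosome genes rose and 0 fell, against 8.83% of all genes called up and 3.69% called down. On day 4, 24 rose and 5 fell, against 25.2% and 21.0% of all genes. On day 6, 31 rose and 5 fell, against 33.6% and 28.4%. In MOLM-13 on day 6, 26 rose and 4 fell, against 29.3% and 36.5%. The median log2 change of the 45 was 0.18, 0.25 and 0.48 on days 2, 4 and 6 in MV4-11 and 0.30 in MOLM-13, while the median over all genes tested was 0.02, 0.01, 0.04 and -0.03. The count of called lysosome genes that also changed at least 1.5-fold was 1, 14, 20 and 18 in the same order. That count was not made over all genes. Without treated replicate 3 of MV4-11 on day 6, 30 rose and 3 fell, and with the 3′ to 5′ covariate 33 rose and 3 fell there and 28 rose and 1 fell in MOLM-13. The MOLM-13 arrays depend on the scaling: of all genes called there 44.5% were higher with EPZ004777, and 56.2% after quantile normalization, which moved the median of all genes by 0.104. Under that scaling 28 lysosome genes rose and 3 fell in MOLM-13, and 32 rose and 2 fell in MV4-11 on day 6. The rise was smaller when each gene was read as the mean of its probe sets. Then 26 rose and 4 fell on day 6 in MV4-11, with a median of 0.37, beside 2979 up and 3569 down of 10394 genes. In MOLM-13 22 rose and 7 fell, with a median of 0.19, beside 2732 up and 4169 down.

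The same 10 genes rose in all 4 comparisons: the protease TPP1, the glycosidases GAA, MANBA and FUCA1, the sulfatase IDS, the lipid enzymes ASAH1 and PPT1, the lipid activators PSAP and GM2A, and GRN. A rise was called on day 6 in both lines for 22 genes and a fall in both for 1, CTSC. NPC2 rose in MV4-11 and fell in MOLM-13, and ATP6V0D1 did the opposite. CTSZ, NEU1 and MITF were called in none of the 4 treatment comparisons. For 25 of the 45 genes the log2 change grew from day 2 to day 4 and again to day 6 in MV4-11. The share of all genes with each of these patterns was not counted, so they are not shown to be particular to lysosome genes.

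**Figure D2:**
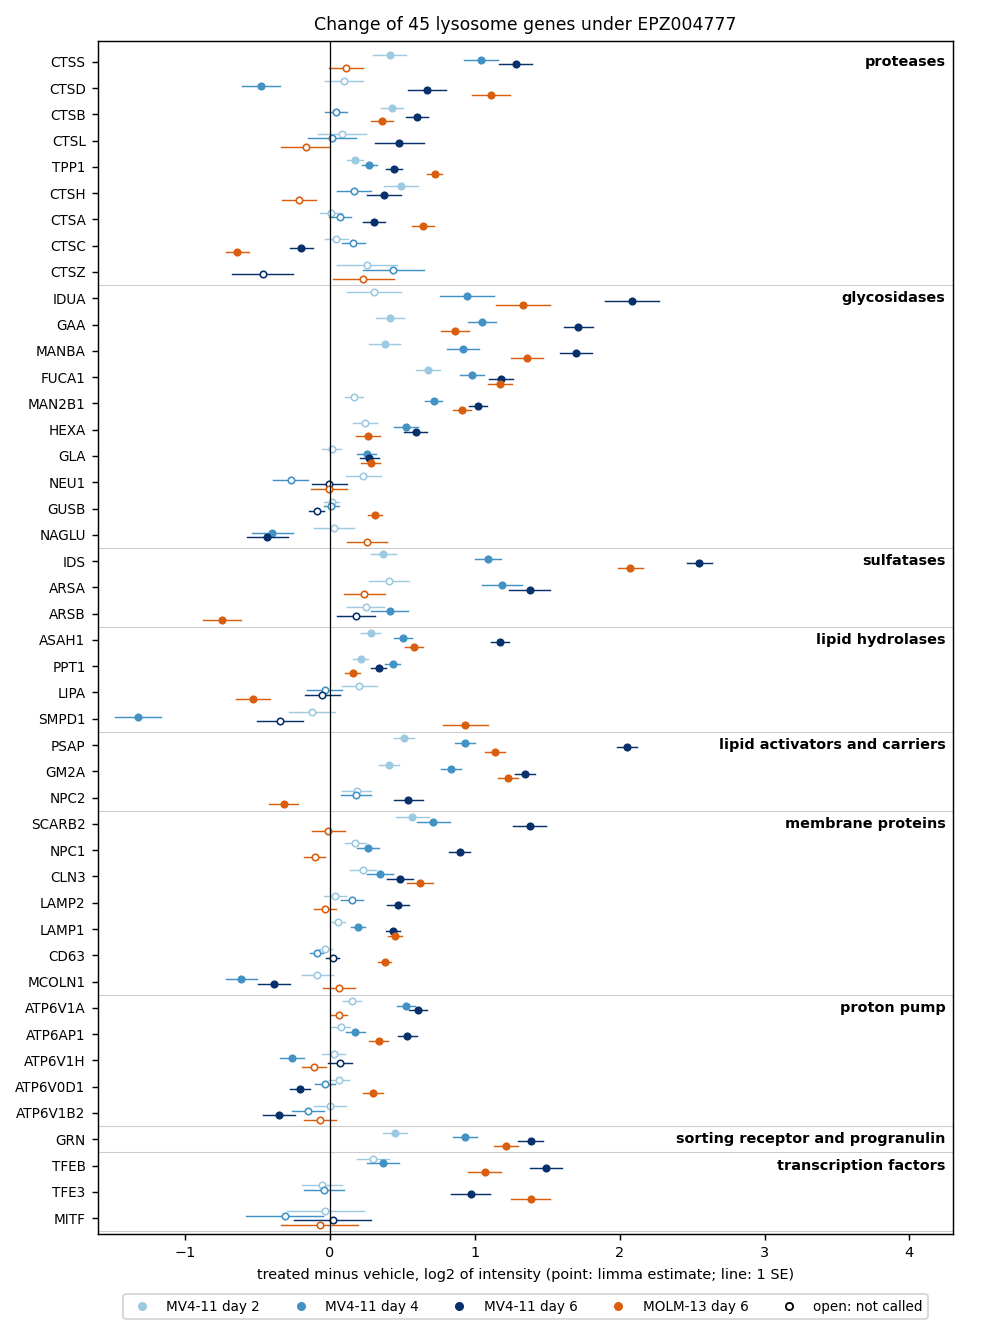
Log2 change under EPZ004777 (treated minus vehicle, 3 arrays against 3) of the 45 tested lysosome genes, ordered by role, with the limma estimate as a point and 1 SE as a line; filled points were called and open points were not. IDS reaches 2.55 in MV4-11 and 2.07 in MOLM-13 on day 6, while the proton pump genes stay between -0.35 and 0.61.

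IDS, iduronate 2-sulfatase, which removes sulfate groups from dermatan and heparan sulfate, had the largest rise of all lysosome genes in both lines on day 6. In MV4-11 it read 8.39, 8.16 and 8.36 with vehicle and 10.73, 10.84 and 10.99 with EPZ004777 on day 6, a log2 change of 2.55 (SE 0.09; limma adjusted p = 9.73e-15), or 5.85-fold. In MOLM-13 it read 7.79, 7.84 and 7.88 against 9.76, 10.00 and 9.98, a change of 2.07 (SE 0.09; limma adjusted p = 1.65e-13). The treated and vehicle arrays were far apart in both lines. The rise was already present on day 4, with 8.76, 8.76 and 8.74 against 9.78, 9.87 and 9.88, and on day 2 it was 0.37 (SE 0.09; limma adjusted p = 0.00783), with an adjusted p of 0.0556 without vehicle replicate 3. Its other 5 probe sets that reached the filter had changes of 0.40 to 2.25 in MV4-11 and of 0.32 to 2.03 in MOLM-13 on day 6.

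The other sulfatases moved differently. ARSA, arylsulfatase A, which desulfates sulfatide, read 5.23, 5.14 and 5.08 with vehicle and 6.29, 6.16 and 6.57 with EPZ004777 on day 4 in MV4-11, and 5.37, 5.32 and 5.43 against 6.72, 6.59 and 6.94 on day 6. The log2 changes were 1.19 (SE 0.14) and 1.38 (SE 0.14), with limma adjusted p-values of 8.49e-07 and 6.24e-08, and no arrays overlapped. In MOLM-13 it was dimmer and not called, with 4.69, 4.60 and 4.45 against 5.20, 4.69 and 4.57, although without treated replicate 3 a rise of 0.36 was called (adjusted p of 0.0365). ARSB, arylsulfatase B, which acts on dermatan and chondroitin sulfate, was called on day 4 in MV4-11 at 0.41 (SE 0.13; limma adjusted p = 0.013) and was not called on day 6. The day 4 call ended without vehicle replicate 1 (adjusted p of 0.0564), and against the vehicle arrays of days 2 and 6 the value turned to -0.095. In MOLM-13 it fell, from 7.53, 7.16 and 6.98 to 6.37, 6.28 and 6.79, a change of -0.74 (SE 0.13; limma adjusted p = 4.5e-05), and with the 3′ to 5′ covariate this was -0.43 with an adjusted p of 0.15. Other ARSB probe sets, both dim, gave 0.24 and -0.29 in MOLM-13.

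Among the glycosidases, which trim sugars from glycoproteins, glycolipids and glycosaminoglycans, 7 of 10 tested rose on days 4 and 6 in MV4-11 and 8 of 10 rose in MOLM-13. Of all genes, 25.2% and 33.6% rose on days 4 and 6 in MV4-11 and 29.3% in MOLM-13. IDUA, alpha-L-iduronidase, works on the same polymers as IDS. It read 7.58, 7.41 and 7.79 with vehicle and 9.49, 9.62 and 9.92 with EPZ004777 on day 6 in MV4-11, a change of 2.08 (SE 0.19; limma adjusted p = 1.16e-08). In MOLM-13 the vehicle arrays read 3.28, 3.32 and 3.36, under the filter level of 4, and the treated arrays 5.26, 4.58 and 4.12, so the change of 1.33 (SE 0.19) starts near the bottom of the scale and depends on the background adjustment, and another IDUA probe set gave -0.25 there. On day 4 in MV4-11 IDUA read 7.94, 7.75 and 7.91 against 8.71, 8.91 and 8.82, already without overlap.

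GAA, the acid alpha-glucosidase that digests glycogen, rose at every time. Vehicle arrays read 8.62, 8.6 and 8.49 on day 4 and 8.44, 8.15 and 8.52 on day 6, and treated arrays 9.54, 9.67 and 9.66 and then 10.01, 9.98 and 10.27. The log2 change was 0.41, 1.05 and 1.72 on days 2, 4 and 6 (SE 0.10 each) and 0.86 (SE 0.10) in MOLM-13, with limma adjusted p-values of 1.78e-11 on day 6 and 2.35e-07 in MOLM-13. The groups did not overlap at any time, and the day 2 call had an adjusted p of 0.0542 without treated replicate 1. MANBA, beta-mannosidase, which cleaves the last mannose of broken-down glycoproteins, read 8.91, 8.66 and 8.52 against 10.48, 10.45 and 10.26 on day 6 in MV4-11 and 8.91, 8.91 and 9.18 against 10.13, 10.50 and 10.45 in MOLM-13. These are 3.24-fold and 2.57-fold, with limma adjusted p-values of 1.26e-10 and 2.72e-09.

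FUCA1, alpha-L-fucosidase, had the largest rise on day 2, when vehicle arrays read 10.01, 10.05 and 10.17 and treated arrays 10.77, 10.80 and 10.69. That is a log2 change of 0.67 (SE 0.08; limma adjusted p = 1.31e-05), the only change of day 2 in these genes of at least 1.5-fold. On day 4 it read 10.25, 10.13 and 10.05 against 11.09, 11.13 and 11.16, and on day 6 the change was 1.18 in MV4-11 and 1.17 in MOLM-13 (SE 0.08 each). MAN2B1, lysosomal alpha-mannosidase, rose by 1.02 (SE 0.06) in MV4-11 and 0.91 (SE 0.06) in MOLM-13 on day 6. HEXA, the alpha subunit of beta-hexosaminidase, and GLA, alpha-galactosidase A, rose in both lines by smaller amounts, between 0.26 and 0.59 by the probe sets used (-0.21 for another of HEXA in MV4-11), and HEXA in MOLM-13 had an adjusted p of 0.0585 without vehicle replicate 1. GUSB, beta-glucuronidase, was called only in MOLM-13, at 0.31 (SE 0.05), and the difference between lines was itself called.

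NAGLU, which removes N-acetylglucosamine from heparan sulfate, went the other way in MV4-11. It read 7.36, 7.66 and 7.45 with vehicle and 6.96, 6.87 and 7.44 with EPZ004777 on day 4, and 7.38, 7.51 and 7.66 against 6.92, 6.92 and 7.41 on day 6. Changes of -0.40 and -0.43 (SE 0.14 each) were called with limma adjusted p-values of 0.0251 and 0.0114, although treated replicate 3 lay within the vehicle range on each day. Leaving out treated replicate 1 or 2 of day 6 took the adjusted p to 0.0583 and 0.0573. On day 6 leaving out vehicle replicate 3 gave 0.0548, and on day 4 leaving out treated replicate 1 or 2 or vehicle replicate 2 gave 0.0978, 0.139 and 0.115. NEU1, the lysosomal sialidase, was not called in any of the 4 treatment comparisons, with -0.005 in MV4-11 and -0.007 in MOLM-13 on day 6 (SE 0.12 each). With the 3′ to 5′ covariate it read 0.28 and 0.59, adjusted p of 0.036 and 0.00702.

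**Figure D3:**
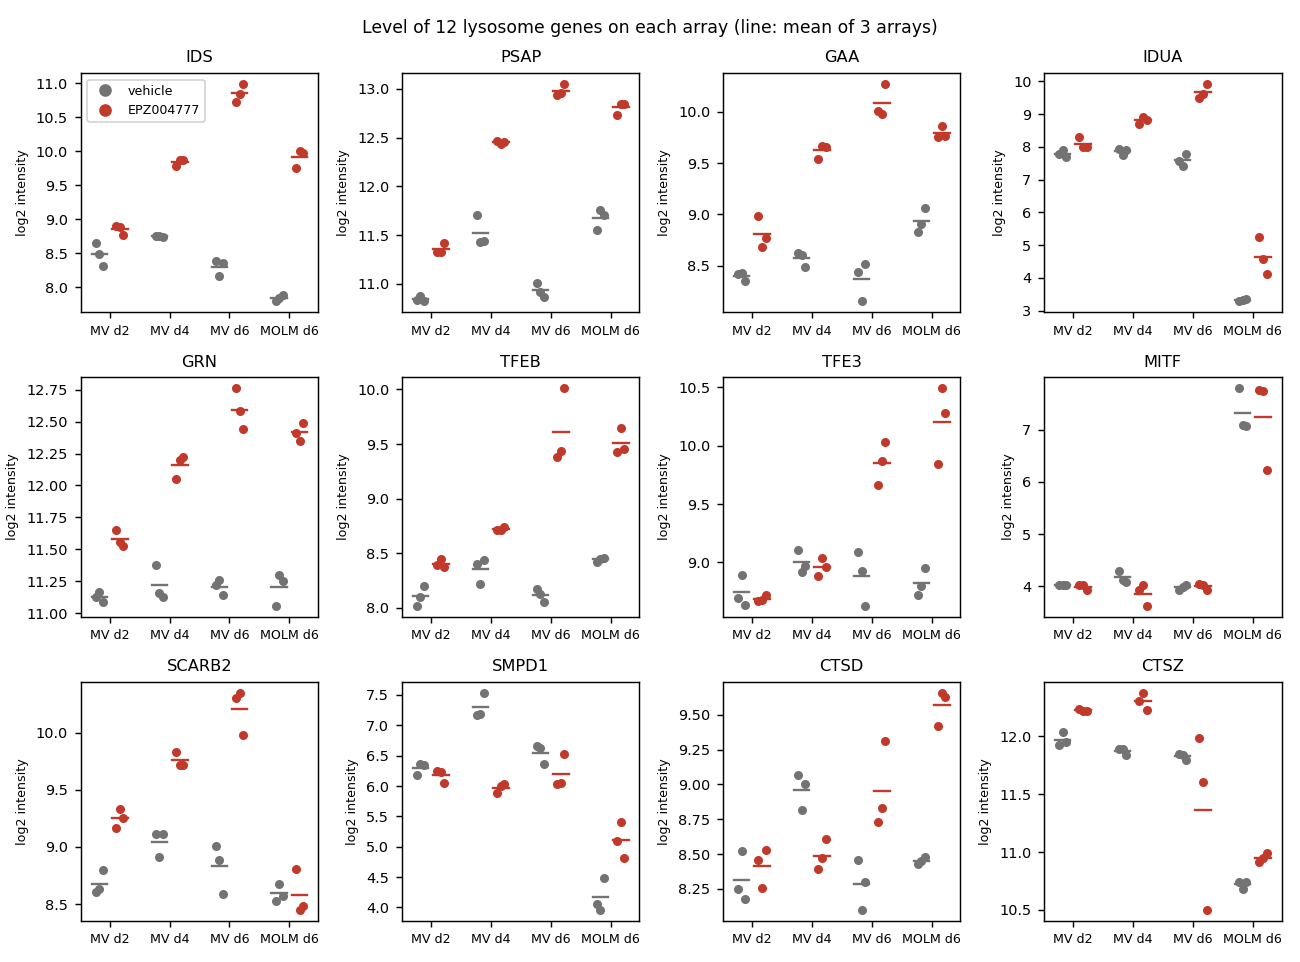
Log2 intensity of 12 lysosome genes on each array, by line and day (MV is MV4-11, MOLM is MOLM-13), with vehicle in grey, EPZ004777 in red and a line at the mean of 3 arrays; each panel has its own axis. IDS, PSAP and GAA step up from day 2 to day 6, TFE3 moves between days 4 and 6, MITF lies near 4 in MV4-11, and CTSZ of the treated MV4-11 day 6 arrays spreads from 10.50 to 11.99.

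Proteases of the lysosome rose in MV4-11 by day 6 for 7 of the 9 tested, and in MOLM-13 for 4, against 33.6% and 29.3% of all genes. CTSS, cathepsin S, a cysteine protease that trims the invariant chain in antigen presentation, read 8.0, 7.75 and 7.82 with vehicle and 8.94, 8.81 and 8.94 with EPZ004777 on day 4, and 7.94, 7.86 and 7.91 against 9.19, 9.09 and 9.27 on day 6. The changes were 1.04 and 1.28 (SE 0.11 each; limma adjusted p = 3.91e-07 and 1.2e-08). In MOLM-13 it read 9.14, 9.40 and 9.08 against 8.99, 9.41 and 9.55, which overlap, although without treated replicate 1 a rise of 0.28 was called (adjusted p of 0.0218). Another CTSS probe set fell by 1.78 on the log2 scale in MOLM-13 and rose by 0.56 on day 6 in MV4-11.

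CTSB and CTSH, cathepsins with exopeptidase activity, were among the early genes. CTSB read 10.93, 10.97 and 10.88 against 11.34, 11.33 and 11.40 on day 2, and CTSH 8.30, 8.33 and 8.25 against 8.74, 8.83 and 8.78, changes of 0.43 (SE 0.08) and 0.49 (SE 0.12) with limma adjusted p-values of 0.000768 and 0.00873. Neither was called on day 4, when both read higher with vehicle than on day 2, and both were called again on day 6. In MOLM-13 CTSB rose by 0.36, and other probe sets gave -0.28, -0.72, 0.80 and 0.20. CTSH on day 6 had an adjusted p of 0.0901 without vehicle replicate 3, and its change moved from 0.37 to 0.23.

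CTSD, the aspartic protease cathepsin D, fell on day 4 and rose on day 6. Vehicle arrays read 9.07, 8.82 and 9.0 on day 4 and 8.46, 8.10 and 8.30 on day 6, and treated arrays 8.39, 8.47 and 8.61 and then 8.73, 8.83 and 9.31. The fall of day 4, -0.48 (SE 0.13; limma adjusted p = 0.00542), came with high vehicle arrays: set against the vehicle arrays of days 2 and 6, the treated arrays of day 4 were 0.19 higher, with an adjusted p of 0.171. In MOLM-13 CTSD rose by 1.11 (SE 0.13), from 8.43, 8.45 and 8.48 to 9.42, 9.66 and 9.63. TPP1, tripeptidyl peptidase, and CTSA, the protective protein of neuraminidase and beta-galactosidase, rose in both lines on day 6, by 0.44 and 0.30 in MV4-11 and by 0.72 and 0.64 in MOLM-13. Other probe sets of TPP1 gave -0.34 and -0.16 in MV4-11, and 1 of them -0.49 in MOLM-13.

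CTSC, which activates the serine proteases of granules, was the only lysosome gene to fall in both lines. In MOLM-13 it went from 12.35, 12.35 and 12.37 to 11.77, 11.68 and 11.71, a change of -0.64 (SE 0.08; limma adjusted p = 8.68e-07). In MV4-11 on day 6 it read 12.12, 12.13 and 12.10 against 12.07, 12.06 and 11.63. The call of -0.20 (limma adjusted p = 0.0383) rests on treated replicate 3, the array with the 3′ to 5′ difference of 1.911, without which the change was -0.05 and the adjusted p 0.357. Leaving out vehicle replicate 1, 2 or 3 also took the adjusted p above the threshold, to 0.0739, 0.0853 and 0.0641. With the covariate the MOLM-13 change was -0.22 and its adjusted p 0.0619. Another CTSC probe set was called higher in both lines, at 0.49 in MV4-11 and 0.32 in MOLM-13. CTSZ, cathepsin X, showed the same array more sharply: treated arrays of day 6 read 11.99, 11.61 and 10.50 against 11.85, 11.84 and 11.80, and no call was made. The change of -0.46 became a call of -0.78 (adjusted p of 0.000926) without treated replicate 1 and of -0.58 (adjusted p of 0.0372) without treated replicate 2. CTSL, cathepsin L, lay near 4 in MV4-11 and its rise of 0.48 there was 0.20, with an adjusted p of 0.171, without the same replicate 3. Without vehicle replicate 2 it had an adjusted p of 0.0501.

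Of the proteins that present lipids to the enzymes or carry them, all 3 rose on day 6 in MV4-11 and 2 rose and 1 fell in MOLM-13. Of all genes 33.6% rose in MV4-11, and 29.3% rose and 36.5% fell in MOLM-13. PSAP encodes prosaposin, the precursor of the saposins. It read 10.84, 10.88 and 10.82 with vehicle and 11.33, 11.33 and 11.42 with EPZ004777 on day 2, and 11.01, 10.92 and 10.87 against 12.94, 12.96 and 13.05 on day 6. The log2 change was 0.51, 0.93 and 2.05 on days 2, 4 and 6 (SE 0.07 each; limma adjusted p = 1.15e-14 on day 6) and 1.14 in MOLM-13, where arrays read 11.55, 11.76 and 11.71 against 12.73, 12.85 and 12.85. None of these groups overlapped. Against the vehicle arrays of days 2 and 6 the day 4 change of PSAP was 1.57, and its second probe set gave -0.37 in MOLM-13. GM2A, the activator that lifts ganglioside for HEXA, rose from 10.29, 10.46 and 10.55 to 11.73, 11.55 and 11.71 in MOLM-13, a change of 1.23 (SE 0.07), and by 1.34 (SE 0.07) on day 6 in MV4-11. Of its other 5 probe sets that reached the filter, 2 were called higher in both lines, at 0.81 to 1.37, and 3 had the opposite sign in both without a call, at -1.05 to -0.084. NPC2, which carries cholesterol inside the lysosome, rose by 0.54 (SE 0.10; limma adjusted p = 0.000116) in MV4-11 on day 6.

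In MOLM-13 NPC2 read 11.02, 11.30 and 11.08 with vehicle and 11.03, 10.54 and 10.88 with EPZ004777, a change of -0.32 (SE 0.10; limma adjusted p = 0.009) with overlapping arrays. That call ended without treated replicate 2 (-0.18, adjusted p of 0.0858) or vehicle replicate 2 (-0.24, adjusted p of 0.0637), and the 3′ to 5′ covariate turned the value to 0.02. LIPA, the acid lipase that frees cholesterol from its esters, was called lower in MOLM-13 and not called in MV4-11, and went from 11.80, 11.95 and 11.83 to 11.51, 10.95 and 11.53. Its change was -0.53 (SE 0.12; limma adjusted p = 0.000667), -0.34 without treated replicate 2, and 0.11 with the covariate. ASAH1, acid ceramidase, rose by 1.17 (SE 0.06) in MV4-11 and 0.58 (SE 0.06, with -0.27 for another probe set) in MOLM-13 on day 6, and PPT1, palmitoyl-protein thioesterase, by 0.34 and 0.16 (SE 0.05 each).

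SMPD1, acid sphingomyelinase, had the largest fall of any lysosome gene, on day 4. It read 7.17, 7.19 and 7.54 with vehicle and 5.88, 6.00 and 6.03 with EPZ004777, a change of -1.33 (SE 0.16; limma adjusted p = 9.94e-07). The vehicle arrays of that day were high, since vehicle read 6.18, 6.36 and 6.35 on day 2 and 6.66, 6.62 and 6.37 on day 6. Against the vehicle arrays of days 2 and 6 the fall was -0.45, with an adjusted p of 0.00791. On day 6 the change of -0.35 was not called, and it was -0.51 (adjusted p of 0.0103) without treated replicate 3 and -0.44 (adjusted p of 0.0376) without vehicle replicate 3. In MOLM-13 it rose by 0.93 (SE 0.16; limma adjusted p = 3.29e-05), from 4.06, 3.96 and 4.48, near the filter level, to 5.09, 5.40 and 4.82, and with the covariate this was 0.25 with an adjusted p of 0.406. Another probe set gave -0.40 there.

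Membrane proteins rose in MV4-11 for 5 of 7 tested on day 6 and in MOLM-13 for 3, against 33.6% and 29.3% of all genes. SCARB2, the receptor LIMP-2 that carries beta-glucocerebrosidase to the lysosome, read 8.61, 8.63 and 8.80 against 9.17, 9.33 and 9.25 on day 2 and 9.01, 8.89 and 8.59 against 10.30, 10.35 and 9.98 on day 6. The changes were 0.57 (SE 0.11; limma adjusted p = 0.00214) and 1.38 (SE 0.11; limma adjusted p = 3.74e-09). In MOLM-13 it read 8.53, 8.68 and 8.57 against 8.81, 8.45 and 8.48, which overlap, and with the 3′ to 5′ covariate the value was 0.47. NPC1, the membrane partner of NPC2 in cholesterol export, was called from day 4 on in MV4-11, with 0.90 (SE 0.07) on day 6 there and -0.11 (SE 0.07, not called) in MOLM-13.

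The structural glycoproteins of the membrane changed less. By the probe set used, LAMP1 rose by 0.44 in MV4-11 and 0.45 in MOLM-13 on day 6 (SE 0.05 each; -0.48 in MOLM-13 by the mean of its probe sets) and LAMP2 by 0.47 (SE 0.07) in MV4-11, with -0.03 in MOLM-13, where other LAMP2 probe sets gave 0.39, 0.36 and -0.85. CLN3, mutated in juvenile Batten disease, rose by 0.48 and 0.62 (SE 0.09 each). CD63, a tetraspanin of late endosomes, was called in MOLM-13 alone, at 0.38 (SE 0.05). MCOLN1, the calcium channel TRPML1, fell in MV4-11: it read 8.19, 8.12 and 8.18 against 7.47, 7.55 and 7.63 on day 4, without overlap, and 8.17, 8.22 and 8.45 against 7.70, 7.76 and 8.21 on day 6, where treated replicate 3 reached the vehicle range. The changes were -0.61 and -0.39 (SE 0.11 each; limma adjusted p = 0.000121 and 0.00451).

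The proton pump moved little and in no common direction. Of 5 tested subunits, 2 rose and 2 fell on day 6 in MV4-11, and 2 rose in MOLM-13. Of all genes 33.6% rose and 28.4% fell in MV4-11, and 29.3% rose and 36.5% fell in MOLM-13. Counts over 5 genes do not set the pump apart from these shares. ATP6V1A, the catalytic subunit, rose by 0.61 (SE 0.06) and the accessory subunit ATP6AP1 by 0.53 (SE 0.07) in MV4-11 on day 6. For ATP6V1A another probe set gave -1.55, and the mean of its probe sets -0.47. ATP6V1B2 read 12.59, 12.53 and 12.52 with vehicle and 12.38, 12.34 and 11.86 with EPZ004777, a change of -0.35 (SE 0.11; limma adjusted p = 0.00894) that was -0.19, with an adjusted p of 0.0797, without treated replicate 3. ATP6V0D1, a subunit of the membrane sector, read 12.79, 12.89 and 12.81 against 12.70, 12.63 and 12.53 in MV4-11, and 12.11, 12.23 and 12.14 against 12.56, 12.31 and 12.49 in MOLM-13. Its fall of -0.21 in MV4-11 had an adjusted p of 0.0126, which became 0.063 without treated replicate 3, 0.0565 without vehicle replicate 2 and 0.349 with the covariate. ATP6V1H was called on day 4 alone, with 10.92, 10.75 and 10.85 against 10.58, 10.57 and 10.59, a change of -0.26 (limma adjusted p = 0.0135), and stood 0.02 higher against the vehicle arrays of days 2 and 6. Without vehicle replicate 1 its adjusted p was 0.061.

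GRN, which encodes progranulin, a secreted protein that is cut to granulins in the lysosome, rose throughout. It read 11.13, 11.17 and 11.09 against 11.65, 11.56 and 11.53 on day 2, 11.22, 11.26 and 11.14 against 12.76, 12.58 and 12.44 on day 6, and 11.06, 11.30 and 11.25 against 12.41, 12.35 and 12.49 in MOLM-13. The log2 change was 0.45, 0.93 and 1.38 on days 2, 4 and 6 and 1.21 in MOLM-13 (SE 0.08 each; limma adjusted p = 5.23e-11 on day 6 and 3.51e-10 in MOLM-13), and its other 2 probe sets gave 1.29 and 1.49 on day 6 and 1.17 and 1.25 in MOLM-13.

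Of the transcription factors, TFEB was called from day 4 on, TFE3 on day 6, and MITF in no treatment comparison. TFEB read 8.02, 8.10 and 8.20 with vehicle and 8.39, 8.45 and 8.37 with EPZ004777 on day 2, 8.40, 8.22 and 8.44 against 8.71, 8.71 and 8.74 on day 4, and 8.17, 8.13 and 8.05 against 9.38, 9.44 and 10.01 on day 6. The changes were 0.30 (not called, adjusted p of 0.098), 0.37 (limma adjusted p = 0.0119) and 1.49 (limma adjusted p = 1.11e-09), with an SE of 0.11 each. The groups did not overlap on any of the 3 days, and the day 4 call had an adjusted p of 0.0637 without vehicle replicate 2, while the change was 0.61 against the vehicle arrays of days 2 and 6. In MOLM-13 TFEB read 8.42, 8.45 and 8.46 against 9.43, 9.65 and 9.45, a change of 1.07 (SE 0.11; limma adjusted p = 1.01e-07) that was 0.44 with the 3′ to 5′ covariate.

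TFE3 overlapped between treated and vehicle on day 2, 8.70, 8.89 and 8.64 against 8.67, 8.68 and 8.72, and on day 4, 9.11, 8.92 and 8.97 against 8.88, 9.04 and 8.96. On day 6 it read 9.09, 8.93 and 8.63 against 9.66, 9.87 and 10.03, a change of 0.97 (SE 0.14; limma adjusted p = 4.13e-06). In MOLM-13 it had the largest rise after IDS, from 8.72, 8.80 and 8.95 to 9.84, 10.49 and 10.28, a change of 1.39 (SE 0.14; limma adjusted p = 3.74e-08), and 0.89 with the covariate. Its effect was 1.01 higher on day 6 than on day 4 (limma adjusted p = 0.00102 for the difference), and that of TFEB 1.13 higher (limma adjusted p = 8.34e-05).

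MITF, the melanocyte and mast cell member of the family, lay between 3.63 and 4.3 on all MV4-11 arrays, near the filter level, and between 6.23 and 7.79 in MOLM-13. MOLM-13 read 7.79, 7.08 and 7.07 with vehicle and 7.75, 7.74 and 6.23 with EPZ004777, a change of -0.07 (SE 0.27). It ranged from -0.33 to 0.44 as 1 array was left out, and was called only without treated replicate 3, at 0.44 with an adjusted p of 0.0184.

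Genes with the promoter motif both rose and fell. Of the 6 genes with TCACGTGA, 4 rose and 2 fell on day 6 in MV4-11, with a median change of 0.37 and a range of -0.39 to 1.72. Of the 27 tested genes without it, 18 rose and 1 fell, with a median of 0.48. In MOLM-13 5 of the 6 rose, with a median of 0.54, against 16 of 27 that rose and 4 that fell, with a median of 0.31. Of all genes 33.6% rose and 28.4% fell on day 6 in MV4-11, and 29.3% rose and 36.5% fell in MOLM-13. GAA and MCOLN1 carry the longest motif, and on day 6 in MV4-11 GAA changed by 1.72 and MCOLN1 by -0.39. IDS, with the largest rise, has no CACGTG among the 300 bases shown. Expression of 12 further tested genes whose promoters were not in the table had a median change of 0.60, so the share with a motif among the largest risers is known for part of them only.

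Treatment effects in MV4-11 were more positive on day 6 than on day 2 for 25 lysosome genes and more negative for 1, by the interaction term of the same model, against 20.9% and 18.7% of all genes. The median difference of the 2 effects was 0.36. The largest differences were those of IDS, 2.18 (SE 0.12; limma adjusted p = 1.76e-10), IDUA, 1.78 (SE 0.26; limma adjusted p = 3.41e-05) and PSAP, 1.54 (SE 0.10; limma adjusted p = 1.27e-09). ATP6V0D1 was the single gene in the other direction, at -0.27 (SE 0.10; limma adjusted p = 0.0333), and its adjusted p was between 0.054 and 0.0818 without any of the treated arrays of day 2, vehicle replicate 1 or 3 of day 2, or treated replicate 3 or vehicle replicate 2 of day 6. The effect was more positive on day 4 than on day 2 for 11 genes and more negative for 4, against 7.22% and 7.77% of all genes. It was more positive on day 6 than on day 4 for 20 and more negative for 2, against 13.9% and 11.9%.

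With vehicle alone the lysosome genes were not constant over days. Between days 2 and 6, 0 of 45 were called by limma, against 1.12% of all genes, and 4 had an unadjusted p under 0.05. Between days 2 and 4, 16 were higher and 3 lower, against 12.9% and 14.1% of all genes, and leaving out vehicle replicate 3 of day 4 brought the total from 19 to 11. The vehicle arrays of day 4 therefore stand apart from those of day 2, for these genes and for others, and the day 4 results of single genes depend on them. The counts changed little: against the vehicle arrays of days 2 and 6, 25 genes were called up and 3 down on day 4. Against those of day 4 itself, 24 were called up and 5 down. Of the 10963 genes in all, 3189 and 3072 were called up and down against days 2 and 6.

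The lines differed in how the lysosome genes responded. On day 6 the treatment effect was more negative in MOLM-13 than in MV4-11 for 20 of 45 genes and more positive for 8, by the interaction term, against 32.7% and 19.3% of all genes. The median difference was -0.18, beside -0.10 over all genes. The split depends on the scaling: it was 16 more negative and 11 more positive after quantile normalization, and 14 and 12 with a common median, under which 2586 genes of all were called more negative and 3208 more positive. The largest negative differences were those of SCARB2, -1.39 (SE 0.16; limma adjusted p = 8.32e-07), CTSS, -1.17 (SE 0.16; limma adjusted p = 7.53e-06) and ARSA, -1.14 (SE 0.20; limma adjusted p = 8.28e-05), each a rise in MV4-11 with no call in MOLM-13. The difference of SCARB2 was 0.18 and -0.07 with other, dim probe sets. The largest positive ones were those of SMPD1, 1.28 (SE 0.22; limma adjusted p = 8.69e-05), NAGLU, 0.69 (SE 0.20; limma adjusted p = 0.00679) and ATP6V0D1, 0.50 (SE 0.10; limma adjusted p = 0.000239). With the 3′ to 5′ covariate the difference of NAGLU was 0.45 with an adjusted p of 0.0794. GRN, GM2A, FUCA1, MAN2B1, GLA and LAMP1 rose in both lines, with differences between -0.17 and 0.01 that were not called.

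**Figure D4:**
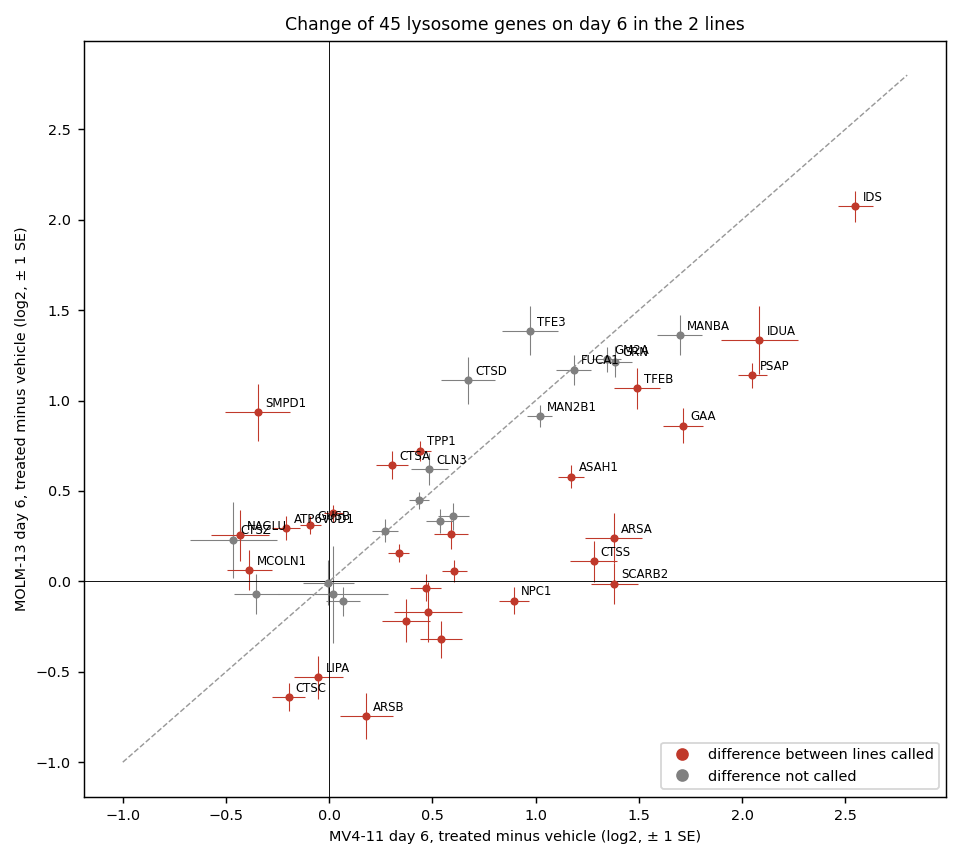
Log2 change on day 6 in MV4-11 (horizontal) and MOLM-13 (vertical) of the 45 tested lysosome genes, with 1 SE each way; red points are the 28 genes whose treatment effect differed between lines by the interaction term, and the dashed line marks equal change. SCARB2, CTSS and ARSA lie far to the right near the horizontal axis, and SMPD1 lies at 0.93 in MOLM-13 and -0.35 in MV4-11.

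With vehicle, the share of lysosome genes that differed between the lines was near that of all genes. Of the 45 genes, 16 were higher and 12 lower in vehicle MOLM-13 than in vehicle MV4-11 on day 6, against 30.7% and 33.0% of all genes. MITF was 3.33 higher (SE 0.27), with MV4-11 near the filter level, and CTSL 3.15 higher (SE 0.17), at 6.93, 7.42 and 7.06 against 4.07, 3.94 and 3.94. CTSS was 1.31 higher (SE 0.11), and -0.42 with another probe set. IDUA was the extreme in the other direction, at -4.27 (SE 0.19; limma adjusted p = 7.34e-14), followed by SMPD1 at -2.38 (SE 0.16) and CTSZ at -1.11 (SE 0.21), which read 10.74, 10.68 and 10.74 against 11.85, 11.84 and 11.80. For IDUA, SMPD1, MITF and CTSL the dimmer line lay near or under the filter level, so these sizes depend on the background adjustment.

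Many lysosome genes have more than 1 probe set, and these did not always move together. On day 6 in MV4-11, 18 called genes had 43 further probe sets that reached the filter, of which 30 were called in the same direction, 4 had the same sign without a call, 2 were called in the opposite direction and 7 had the opposite sign without a call. In MOLM-13, 17 called genes had 39, of which 19 were called in the same direction, 6 had the same sign without a call, 6 were called in the opposite direction and 8 had the opposite sign without a call. LAMP1 was the widest case: the probe set used rose by 0.45 in MOLM-13 while another fell by 2.40 on the log2 scale. ATP6V1A had a second probe set at -1.55 in MV4-11 and -1.61 in MOLM-13, and PSAP one at 1.90 in MV4-11 and -0.37 in MOLM-13. IDS, GRN, TFEB and CLN3 had further probe sets of the same sign in both lines on day 6, and so had TFE3.

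**Figure D5:**
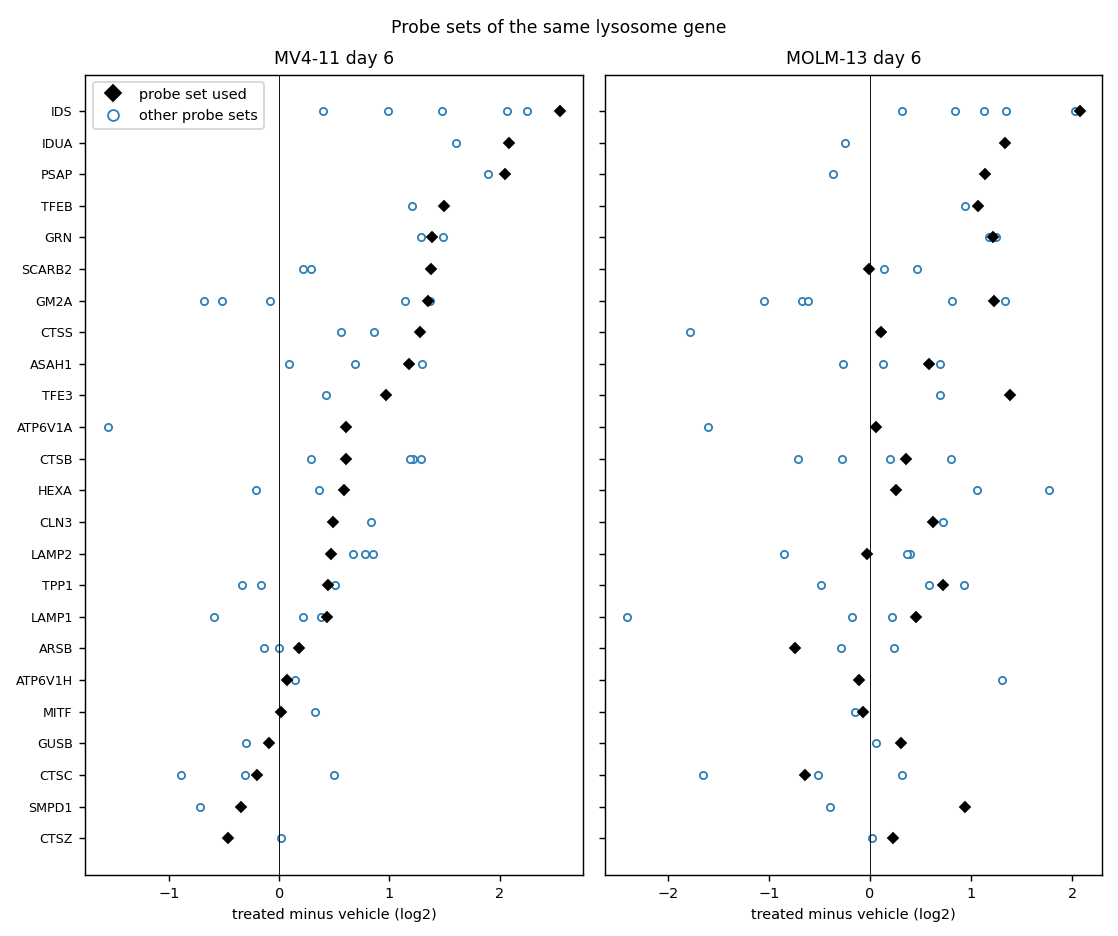
Log2 change on day 6 of every probe set that reached the filter, for the 24 lysosome genes with more than 1, in MV4-11 (left) and MOLM-13 (right); black diamonds are the probe sets used and open circles the others. In MV4-11 most circles lie on the same side of 0 as the diamond, while in MOLM-13 those of LAMP1, CTSS, ATP6V1A and CTSB spread to both sides.

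Genes of the same pathways outside the 49 were read from 6 lists with 145 genes, of which 127 were tested. On day 6 in MV4-11 54 rose and 24 fell, with a median change of 0.11, and in MOLM-13 44 rose and 43 fell, with a median of 0.07. Of all genes tested 33.6% rose and 28.4% fell in MV4-11 and 29.3% rose and 36.5% fell in MOLM-13, against which each list is to be read. Other lysosomal enzymes followed the 49 in MV4-11: 14 of 21 rose and 1 fell. They included CTSO, 2.09 (SE 0.15), at 3.44 to 3.82 with vehicle, below the filter level, SGSH, the heparan N-sulfatase, 1.5 (SE 0.11) and DNASE2, the acid nuclease, 1.46 (SE 0.14). In MOLM-13 9 of these 21 rose and 5 fell, with CTSK, the collagen-degrading cathepsin K, at 1.98 (SE 0.12), DNASE2 at 1.70 (SE 0.14) and SIAE at 0.70 (SE 0.11). CTSO stayed between 3.17 and 3.34 on all MOLM-13 arrays, at the bottom of the scale. It remains among the 21 genes counted although no MOLM-13 array and no vehicle array of MV4-11 on day 6 reached the filter level.

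Of 24 other membrane proteins, 13 rose and 1 fell on day 6 in MV4-11, and 10 rose and 9 fell in MOLM-13. The calcium channel gene TPCN1 rose by 1.32 and 1.36 (SE 0.11 each) in the 2 lines, SIDT2 by 1.3 in MV4-11, and LAPTM4B changed by -1.45 (SE 0.05) in MV4-11. In MOLM-13 the metal transporter gene SLC11A1 changed by -0.96 (SE 0.18) and ABCA2 by -0.88 (SE 0.15). The proton pump again showed no common direction: of 15 other subunits 3 rose and 4 fell in MV4-11 and 5 rose and 4 fell in MOLM-13. ATP6V1C2, an alternative stalk subunit, rose by 3.84 (SE 0.16) in MV4-11, from 2.52 to 2.66, below the filter level, to 5.95 to 6.97, and by 2.06 (SE 0.16) in MOLM-13, from 8.94 to 9.0 to a range of 10.99 to 11.09. ATP6V1G2 read 2.63 with vehicle and 3.64 to 4.53 with EPZ004777 in MV4-11. It is among the 15 subunits counted although it reached the filter through treated arrays alone, so its rise adds no support. ATP6V0E2 rose by 1.15 in MOLM-13, and ATP6V0A2 changed by -0.71 and -2.05 (SE 0.16 each).

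Of 20 genes that tag and sort the enzymes, 4 rose and 8 fell in MV4-11 on day 6, with a median of -0.12, and 4 rose and 10 fell in MOLM-13. Over all genes 33.6% rose and 28.4% fell in MV4-11, and 29.3% rose and 36.5% fell in MOLM-13. M6PR, the cation-dependent mannose 6-phosphate receptor, changed by -1.29 (SE 0.27) and -0.84 (SE 0.27), and SNX2, a sorting nexin, by -0.86 and -1.48 (SE 0.15 each). AP3B1, an adaptor subunit for lysosomal membrane proteins, changed by -1.05 (SE 0.17) in MOLM-13, and GNPTAB, which adds the mannose 6-phosphate tag, rose by 1.15 (SE 0.12) in MV4-11. Of 20 genes of nutrient sensing and TFEB control, 8 rose and 5 fell in MV4-11 and 5 rose and 6 fell in MOLM-13. TFEC, the fourth relative of TFEB, rose by 1.09 and 1.34 (SE 0.08 each). ZKSCAN3, a repressor of lysosome genes, rose by 0.87 and TSC2 by 0.77 in MV4-11, and RHEB, the activator of mTORC1, changed by -1.29 (SE 0.10) and LAMTOR4 by 0.64 (SE 0.07) in MOLM-13.

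Of 27 autophagy genes, 12 rose and 5 fell in MV4-11 on day 6 and 11 rose and 9 fell in MOLM-13. The shares that rose, 44.4% and 40.7%, stand beside 33.6% and 29.3% of all genes, of which 28.4% and 36.5% fell. GABARAPL1 rose by 1.42 (SE 0.35) and ATG9A by 0.72 (SE 0.17) in MV4-11, and the receptor gene OPTN changed by -1.18 (SE 0.16). In MOLM-13 ATG3, a lipidation enzyme, changed by -1.31 (SE 0.13), GABARAPL2 by -1.02 (SE 0.11) and WIPI1 by 1.26 (SE 0.30). All calls in these lists are from the same limma fit. Each gene of these lists, and of the marker lists below, was read from its brightest probe set alone. For these genes other probe sets, the 3′ to 5′ covariate, other scalings and leaving out arrays were not checked. The falls in MOLM-13 come from treated arrays with a 3′ to 5′ difference of 2.102 to 2.84. Whether they hold with the covariate was not tested.

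Many markers of monocytes, macrophages, neutrophils and granules also rose, though not all, and their part in the result was not tested. Of 9 tested monocyte and macrophage markers, CD14 and VCAN reached the filter only through the treated MOLM-13 arrays and are left out of the counts. Of the other 7, 5 rose on day 2, 5 rose and 1 fell on day 4, 6 rose on day 6 in MV4-11, and 6 rose and 1 fell in MOLM-13. All marker counts are to be read against the shares of all genes. Those were 8.83% up on day 2, 25.2% up and 21.0% down on day 4, and 33.6% up and 28.4% down on day 6 in MV4-11. In MOLM-13 they were 29.3% up and 36.5% down. The summed intensity over all 15 markers of that list with a probe set, CD14 and VCAN included, was 20048 to 20630 with vehicle on day 6 in MV4-11. With EPZ004777 it was 34222 to 43869 there, and in MOLM-13 it was 17286 to 22056 against 41491 to 47044. CSF1R, the receptor for macrophage colony-stimulating factor, rose by 1.90 and 1.41 (SE 0.09 each) and MPEG1 by 1.58 and 2.16 (SE 0.08 each). FCGR2A rose by 1.25 on day 6 in MV4-11 and fell by 0.58 on the log2 scale in MOLM-13 (SE 0.16 each). The marker that fell on day 4 was ITGAX, at -1.65 (SE 0.26). CD163, MRC1, MSR1, FCGR1A, C1QA and C1QB, which mark mature macrophages, were below the filter level on all arrays. CD14, the lipopolysaccharide co-receptor of monocytes, read 2.19 to 2.20 on all MV4-11 arrays and on the vehicle MOLM-13 arrays, the bottom of the scale, and 4.02 to 4.78 on the treated MOLM-13 arrays. Of 9 tested neutrophil and granule markers, MMP9 likewise reached the filter through treated arrays alone, and the other 8 all rose on day 6 in MV4-11, with a summed intensity of 42491 to 46968 against 88250 to 92694, and 4 rose and 1 fell in MOLM-13, with 112137 to 126663 against 133593 to 137018. The granule protease gene CTSG was the one that fell in MOLM-13, and AZU1, ELANE and PRTN3 were not called there. Few markers of other lineages were tested. On day 6 in MV4-11 and in MOLM-13, 1 of 3 tested B cell markers rose and 1 of 3 fell, 2 of 3 and 3 of 3 T and NK cell markers rose, 1 erythroid marker fell and was not called, 1 megakaryocyte marker rose and was not called, and of 3 fibroblast and epithelial markers 1 rose and 1 fell in each line, the former KRT8, which reached the filter through treated arrays alone. IGLL1 of the B cell list changed by 1.04 on day 6 in MV4-11 and by -3.67 in MOLM-13 (SE 0.15 each). CD3D of the T and NK cell list changed by 0.15, not called, and by 2.74 (SE 0.36 each). The summed intensity of each of these lists was at most 3116 on any array.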

How the data were processed

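RNA of 24 samples was hybridised to Affymetrix human arrays with 54675 probe sets. The deposited values are intensities on a linear scale, from 4.55 to 71593, made by the authors with GCRMA per the submitters' processing notes, with a version not given in the sources used here. GCRMA corrects background and normalizes between arrays, so dim probe sets share a floor near log2 2.19. No 2 arrays were identical.

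Log2 was taken with pseudocount 0. The platform annotation names a single gene for 41097 probe sets, several for 1801 and none for 11777, and 41043 of the first matched RefSeq. Each gene was read from its brightest probe set by mean, if at log2 4 or more on 3 arrays. limma 3.58.1 in R 4.3.3 fitted 8 group means over all 24 arrays, and p-values were adjusted over 10963 genes by Benjamini-Hochberg, with calls at 0.05. Tables and figures were made with Python 3.11.15. A simulation drew normal noise of the fitted spread around the mean of each gene over all 24 arrays, for 10963 genes. Changes were added to treated MV4-11 of day 6 only. Of these, 82 of 100 of 0.5 and 97 of 100 of 1 on the log2 scale were recovered, with 4 false calls. It gave all groups the same spread, held no outlying array and changed fewer genes than were called in the data. Recovery in the data themselves was therefore not measured.

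The genes given array by array are the 6 called with the largest rise and the 6 with the largest fall in each treatment comparison, the 3 transcription factors, and the 3 most positive and 3 most negative of each difference and of the vehicle lines. Other pathway genes are the 3 with the largest called change per list and line. Marker lists cover monocytes and macrophages, neutrophils and granules, B cells, T and NK cells, erythroid cells, megakaryocytes, and fibroblasts and epithelium. The members and lists were chosen with earlier results of these data known. Comparisons that share arrays, such as the effect of day 6 and its difference from day 2, are not independent. The number of arrays limits precision. Alternatives were the filter, arrays fitted, variance prior, probe sets, scaling, a replicate block, the 3′ to 5′ covariate and each array left out. Single-gene values under them were read for lysosome genes only, not for other pathway genes or markers.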

Additional observations from a re-analysis of the deposited data

Results flagged for a closer look

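The treatment effect in MV4-11 differed between days 2 and 6 by the interaction term for 26 of 45 lysosome genes and for 4340 of all 10963 genes. Among those named, the difference, day 6 minus day 2, was 2.18 for IDS, 1.78 for IDUA, 1.54 for PSAP and -0.27 for ATP6V0D1. On day 6 the treatment effect differed between MOLM-13 and MV4-11 by the interaction term for 28 of 45 lysosome genes and for 5703 of all 10963 genes. The difference, MOLM-13 minus MV4-11, was -1.39 for SCARB2, -1.17 for CTSS, -1.14 for ARSA, 1.28 for SMPD1, 0.69 for NAGLU and 0.50 for ATP6V0D1. Day and line cannot be told apart from the culture and hybridisation of each group's arrays, since the labels name no batch, and the 3′ to 5′ control difference moves with treatment most in MOLM-13.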

How the results depend on the processing

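With the extra demand of a 1.5-fold change, the counts of lysosome genes were 1, 14, 20 and 18 for treatment on days 2, 4 and 6 in MV4-11 and in MOLM-13. They were 5, 13 and 15 for the differences of day 4 from 2, 6 from 4 and 6 from 2, 14 between the lines' effects, 3 for vehicle day 4 against 2 and 16 for the vehicle lines. None of these was counted over all genes. Leaving out 1 array gave 10 to 13 genes for day 2, 27 to 28 for day 4, 33 to 36 for day 6 and 29 to 32 for MOLM-13. The same gave 11 to 15, 18 to 22 and 23 to 29 for the differences of days, 23 to 29 for that of lines, 11 to 15 and 0 to 1 for vehicle days 4 and 6 against 2, and 26 to 28 for the vehicle lines.

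Signs turned mostly with the probe set. On day 6 in MV4-11 another probe set gave 0.49 for CTSC, -0.34 and -0.16 for TPP1, -0.21 for HEXA, -0.084, -0.52 and -0.68 for GM2A, -0.59 for LAMP1 and -1.55 for ATP6V1A, whose mean over probe sets was -0.47. In MOLM-13 it gave -0.28 and -0.71 for CTSB, 0.32 for CTSC, -1.78 for CTSS, -0.49 for TPP1, -0.25 for IDUA, 0.24 for ARSB, -0.27 for ASAH1, -0.40 for SMPD1 and -0.37 for PSAP. It gave -0.68, -1.05 and -0.61 for GM2A, -2.40 and -0.18 for LAMP1, 0.39 and 0.36 for LAMP2, 0.47 for SCARB2, -1.61 for ATP6V1A and 1.3 for ATP6V1H. The mean over probe sets gave -0.52 for CTSS, -0.48 for LAMP1, -0.77 for ATP6V1A and 0.60 for ATP6V1H. The difference of lines was 0.18 for SCARB2, and that of vehicle lines -0.42 for CTSS, with another probe set. The 3′ to 5′ covariate gave 0.28 for NEU1 and 0.25 for LIPA in MV4-11, and 0.59 for NEU1, 0.11 for LIPA, 0.023 for NPC2, 0.47 for SCARB2 and 0.56 for ATP6V1B2 in MOLM-13. Against the vehicle of days 2 and 6, day 4 gave 0.19 for CTSD, 0.023 for ATP6V1H and -0.095 for ARSB. MITF in MOLM-13 ranged from -0.33 to 0.44 as each array was left out, the highest without treated replicate 3. The causes were not tested.

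Replicate numbers did not pair the samples: 0 of 12 pairs of same-numbered arrays had deviations that correlated over 0.1, from -0.262 to 0.096. The replicate block gave 14, 29, 36 and 30 called genes for days 2, 4 and 6 and MOLM-13, and moved none of the other counts by over 1.5 times. The 2 normalizations tried, quantile and common median, turned no sign of a called change of a named gene. The common median moved the median of all genes by 0.084 in MOLM-13, so uncalled changes smaller than such a shift can turn sign.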
